A study of Homo sapiens with 6 samples.

Results

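The circadian clock genes were followed in RNA sequencing libraries labelled HT1197, an established line from a human bladder carcinoma, after vehicle or panobinostat, an inhibitor of histone deacetylases. The group was chosen by symbol and holds 10 genes, CLOCK, BMAL1 (formerly ARNTL), PER1, PER2, PER3, CRY1, CRY2, NR1D1, NR1D2 and DBP, and each had its own row among the 22718 genes of the deposited tables. The vehicle arm (3 libraries, A to C, labelled untreated) spent 48 hours in 1% DMSO, and the panobinostat arm (3 libraries, A to C) spent 48 hours in drug at 2 times the IC50 of the line. Dishes were seeded in triplicate from this single line, with no genetic change named for either arm, and the labels name no synchronisation of the cells and no second time point. They do not tie libraries to separate dishes, and p-values therefore reflect only how far these libraries spread, which may be technical.

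Total counts ran from 13417898 to 18186087 per library. Within each arm, library A lay farther from B and C (chi-square per gene of 7.97 to 10.6) than B from C (2.64 and 3.19), and libraries of different arms lay at 82.2 to 91.7. The bladder label was not borne out by marker genes: of 11 urothelial markers with a row, 8 stood under 1 FPKM (a level scaled to gene length and library total) in the vehicle mean, TP63, FOXA1 and UPK1B had 0 vehicle counts, and 1, GATA3, stood above 10 FPKM. Of 11 adrenergic neuroblast markers 10 stood at 10 FPKM or more, and their summed level ran from 1810 to 2030 FPKM with vehicle and from 1480 to 1580 FPKM with panobinostat. The 3 leukocyte and endothelial markers with a row summed to 0.441 to 1.12 FPKM in every library. These libraries are therefore called by their label only, and the part of cell identity in the results was not tested.

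The mammalian clock is a loop of transcription and repression. CLOCK and BMAL1 form a dimer that binds E-boxes and switches on the PER and CRY genes, whose proteins return to the nucleus and repress that dimer. A second loop joins on through the nuclear receptors NR1D1 and NR1D2 (REV-ERB alpha and beta), which silence BMAL1 with the NCOR1 and HDAC3 corepressor, and DBP carries the signal to D-boxes of output genes. Histone acetylation and deacetylation are part of each of these steps, which is why the group is of interest under an HDAC inhibitor.

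The elements of the loop can be read in the members' own promoters. RefSeq start sites (GRCh38.p14) gave 15 windows for the 10 members, each covering the 250 bases before a start, and 4 kinds of element searched on both strands are described: the E-box CACGTG, the E-prime box CACGTT, the D-box (TTATGTAA and also TTACGTAA) and the cyclic AMP element TGACGTCA. None of these letters contains another. A start here is a RefSeq start, and some windows lie inside the gene span given below, such as those printed for PER1, PER2 and CLOCK. In CLOCK, PER3, CRY2 and NR1D2, which had 2 windows each, the matches shown stood in only 1 of the 2. The matches below are shown 5′ to 3′ on the gene's own strand with the matched letters in capitals (as the reverse complement where the match lies on the other strand), because they show which members carry which element. E-box letters stood once before PER1 and at 2 places before NR1D2.

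PER1 E-box, chr17:8152560-8152589, minus strand: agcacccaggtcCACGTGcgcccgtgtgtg
NR1D2 E-box, chr3:23945954-23945983, plus strand: ggcgggcggggaCACGTGaggccgctcggc
NR1D2 E-box nearer the start, chr3:23946004-23946033, plus strand: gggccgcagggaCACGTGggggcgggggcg

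E-prime letters stood before PER2, CLOCK, CRY1, CRY2 and NR1D1, on the opposite strand (AACGTG as printed) in the last 3 of these.

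PER2 E-prime box, chr2:238288790-238288819, minus strand: ggcgcgcgcggtCACGTTttccactatgtg
CLOCK E-prime box, chr4:55546102-55546131, minus strand: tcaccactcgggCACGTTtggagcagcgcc
CRY1 E-prime box, chr12:107093621-107093650, minus strand: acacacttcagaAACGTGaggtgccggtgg
CRY2 E-prime box, chr11:45847275-45847304, plus strand: acacatggtaggAACGTGagggggcgggcc
NR1D1 E-prime box, chr17:40100740-40100769, minus strand: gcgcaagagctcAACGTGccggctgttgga

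D-box letters stood before PER3 and NR1D2.

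PER3 D-box, chr1:7784103-7784132, plus strand: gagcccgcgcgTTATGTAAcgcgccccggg
NR1D2 D-box, chr3:23945916-23945945, plus strand: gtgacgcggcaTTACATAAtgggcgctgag

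The PER2 window is given whole, since it held the most CpG pairs of the 15 (50) and no annotated exon: it spans chr2:238288611-238288860 on the minus strand.

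PER2 window: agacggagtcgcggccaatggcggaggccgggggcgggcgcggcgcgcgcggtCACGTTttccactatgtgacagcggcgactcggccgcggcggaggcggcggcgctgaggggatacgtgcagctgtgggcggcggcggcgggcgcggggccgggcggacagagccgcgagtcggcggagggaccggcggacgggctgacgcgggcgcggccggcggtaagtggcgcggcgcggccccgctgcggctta

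The E-box was in 2 of the 15 windows and in 6.34% of all 35116 RefSeq windows of the same length. The E-prime box was in 5 windows and in 4.55% of all, and the D-box in 2 and in 0.94% of all. The cyclic AMP element was in none of the 15 and in 1.65% of all. The windows of BMAL1 and DBP held none of these letters. Member windows had a median GC content of 70.8%, against 58.0% over all windows. A match is only a match of letters, and the members that changed did not share 1 element: of the 5 described next, PER1 had an E-box, PER2, CLOCK and CRY1 had an E-prime box, and BMAL1 had neither.

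Panobinostat changed 5 of the 10 members, and the activators and the period genes each held a rise and a fall. BMAL1, PER1 and CRY1 rose 1.94-fold, 2.35-fold and 1.62-fold, CLOCK and PER2 were 1.59-fold and 1.47-fold lower, and PER3, CRY2, NR1D1, NR1D2 and DBP did not pass the test (edgeR's quasi-likelihood test, Benjamini-Hochberg adjusted p of 0.05 or less over all genes). The 3 rises and 2 falls among 10 members stand beside 33.7% of all 16084 tested genes that rose, 31.5% that fell and 65.2% that changed either way, so the members were called no more often than genes at large. The arms did not overlap for 5 of the 10 members, and they did not overlap for 68.8% of all tested genes. The median log2 change of the members was 0.10 and that of all tested genes 0.01, and the medians of its absolute size were 0.39 and 0.47. All 10 members, each a protein coding gene, passed the abundance filter on either arm alone. In bulk libraries such as these, fewer cells of a type and less RNA per cell cannot be told apart.

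**Figure D1:**
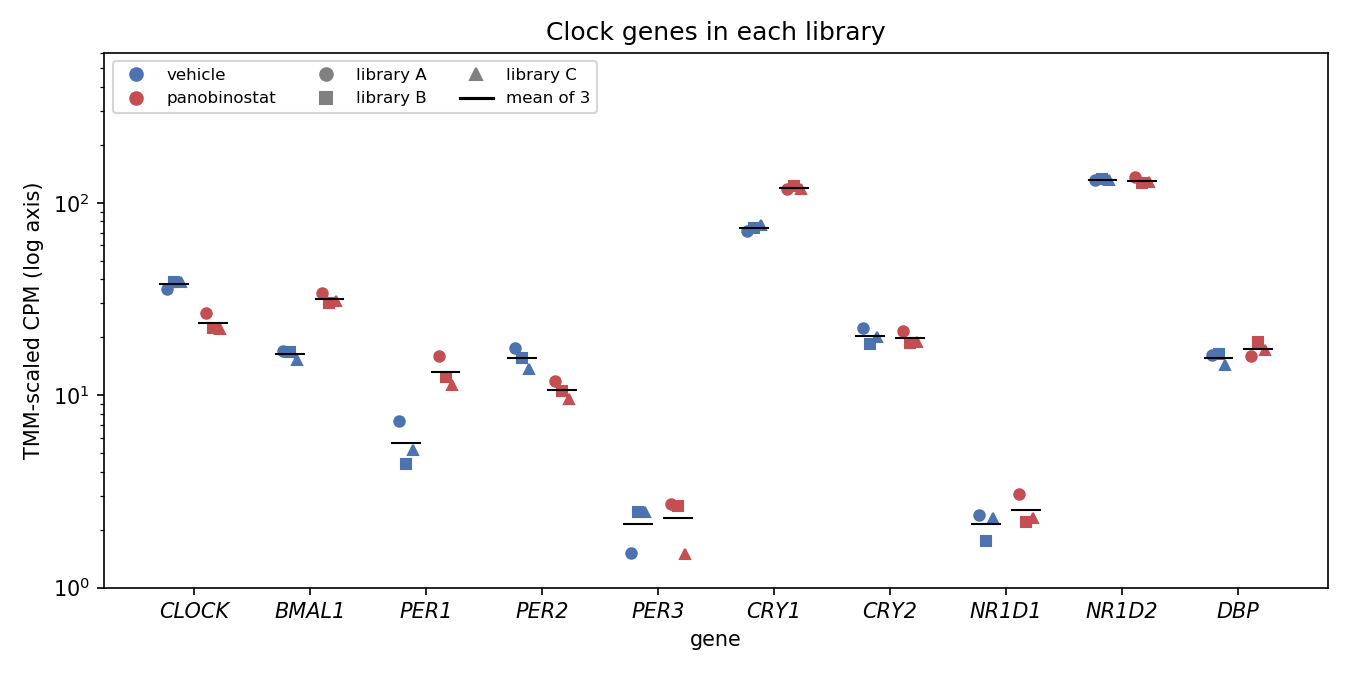
Level of each clock gene in each library (vertical axis, TMM-scaled CPM, log axis; blue vehicle, red panobinostat, symbols for libraries A to C, black line the mean of 3). BMAL1, PER1 and CRY1 lie higher and CLOCK and PER2 lower in all 3 panobinostat libraries, while the arms overlap for the other members.

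CLOCK (ENSG00000134852, chromosome 4, 55427903 to 55547138, minus strand, GRCh38), the bHLH-PAS partner that itself has acetyltransferase activity, stood at 35.6, 38.6 and 38.8 CPM in vehicle libraries A, B and C and at 26.8, 22.4 and 22.1 CPM with panobinostat. These CPM are counts scaled to library size with TMM, a correction for library composition. Every panobinostat library lay below every vehicle library, and library A was the lowest of the vehicle arm and the highest of the panobinostat arm. CLOCK fell by 0.67 ± 0.10 on the log2 scale (estimate ± SE, edgeR adjusted p = 2.18e-05). BMAL1 (ENSG00000133794, chromosome 11, 13276652 to 13387266, plus strand), its dimer partner and the gene whose loss alone stops the clock, stood at 16.9, 16.9 and 15.3 CPM with vehicle and at 33.8, 30.1 and 31.0 CPM with panobinostat. The arms lay far apart beside their spread, and BMAL1 rose by 0.95 ± 0.10 (adjusted p = 5.97e-07).

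By length-scaled level (FPKM), CLOCK was above BMAL1 in all 3 vehicle libraries and below it in all 3 panobinostat libraries. FPKM divide by all annotated exonic bases, 11762 for CLOCK and 6726 for BMAL1. Which of the 2 partners stands higher in an arm therefore depends on these lengths, which need not be those of the transcripts made. The shift of their log2 ratio between arms does not depend on them. BMAL1 made up 45.3%, 43.3% and 40.8% of the summed FPKM of both genes with vehicle and 68.9%, 70.1% and 71.0% with panobinostat. The log2 ratio of CLOCK to BMAL1 moved from 0.40 ± 0.13 (SD, n = 3) to -1.22 ± 0.07, a difference of -1.62 (two-sided exact permutation p = 0.1, the smallest that 3 against 3 allows, and 0.167 adjusted over the 5 ratios tested). A ratio within a library does not depend on how libraries are scaled to each other. Their summed level was 5.38, 5.52 and 5.32 FPKM with vehicle and 7.63, 6.65 and 6.66 FPKM with panobinostat, so the sum was higher in every panobinostat library. FPKM carry no TMM correction, and TMM factors were 0.956 to 0.971 with vehicle and 1.03 to 1.05 with panobinostat. Levels and sums in FPKM therefore read somewhat higher with panobinostat, relative to vehicle, than TMM-scaled CPM do. BMAL2, the paralog of BMAL1, rose from 10.95 ± 0.973 to 14.05 ± 1.21 CPM, by 0.36 ± 0.12 on the log2 scale (adjusted p = 0.0158), but it did not pass without panobinostat library B (adjusted p = 0.0856). No row was used here for NPAS2, the paralog of CLOCK.

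Among the period genes, which encode the repressors that dimerise with the cryptochromes, PER1 and PER2 went opposite ways. PER1 (ENSG00000179094, chromosome 17, 8140472 to 8156506, minus strand), the member most directly induced by outside signals, stood at 7.36, 4.39 and 5.20 CPM with vehicle and at 15.9, 12.4 and 11.3 CPM with panobinostat. Library A was the highest in each arm, and the lowest panobinostat library still lay above the highest vehicle library. PER1 rose by 1.23 ± 0.18 on the log2 scale (adjusted p = 3.10e-05), the largest change in the group. Without vehicle library A the estimate was 1.44, without panobinostat library A it was 1.09, and it passed in both cases.

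PER2 (ENSG00000132326, chromosome 2, 238244038 to 238290102, minus strand), the period protein most often tied to tumour suppression, stood at 17.5, 15.7 and 13.8 CPM with vehicle and at 11.9, 10.5 and 9.59 CPM with panobinostat. Here too library A was the highest of each arm, and the arms did not overlap. PER2 fell by 0.56 ± 0.13 (adjusted p = 0.00127). It did not pass with limma on log2(FPKM + 1) over all rows (adjusted p = 0.0594), where the change was -0.29. PER3 (ENSG00000049246, chromosome 1, 7784320 to 7845177, plus strand), the period gene least needed for rhythm in mice, rested on 21 to 45 counts per library. It stood at 1.52, 2.46 and 2.48 CPM with vehicle and at 2.71, 2.66 and 1.5 CPM with panobinostat, with 1 low library in each arm. Its change of 0.05 ± 0.28 did not pass (adjusted p = 0.878), turned negative without vehicle library A (-0.14) or panobinostat library A or B (-0.08 in both cases). With an SE of 0.28, a change several times larger than 0.05 could also go undetected at this depth.

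The summed level of the period genes overlapped between arms while its makeup did not. PER1 made up 27.8%, 19.5% and 24.4% of the summed PER FPKM with vehicle and 52.5%, 48.9% and 50.5% with panobinostat. PER2 made up 67.3%, 71.0% and 65.6% with vehicle and 39.8%, 42.0% and 43.7% with panobinostat. The summed PER level was 3.22 ± 0.402 FPKM with vehicle and 3.86 ± 0.626 FPKM with panobinostat, and these ranges overlapped. By FPKM, with exonic lengths of 7002 and 6877 bases, PER1 stood below PER2 in every vehicle library and above it in every panobinostat library. That order depends on these lengths as well. The log2 ratio of PER1 to PER2 moved from -1.52 ± 0.30 to 0.28 ± 0.11, a difference of 1.80 (exact permutation p = 0.1, adjusted 0.167). The log2 ratio of PER2 to PER3 differed by -0.63 between arms, and its ranges overlapped (exact permutation p = 0.3, adjusted 0.375).

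**Figure D2:**
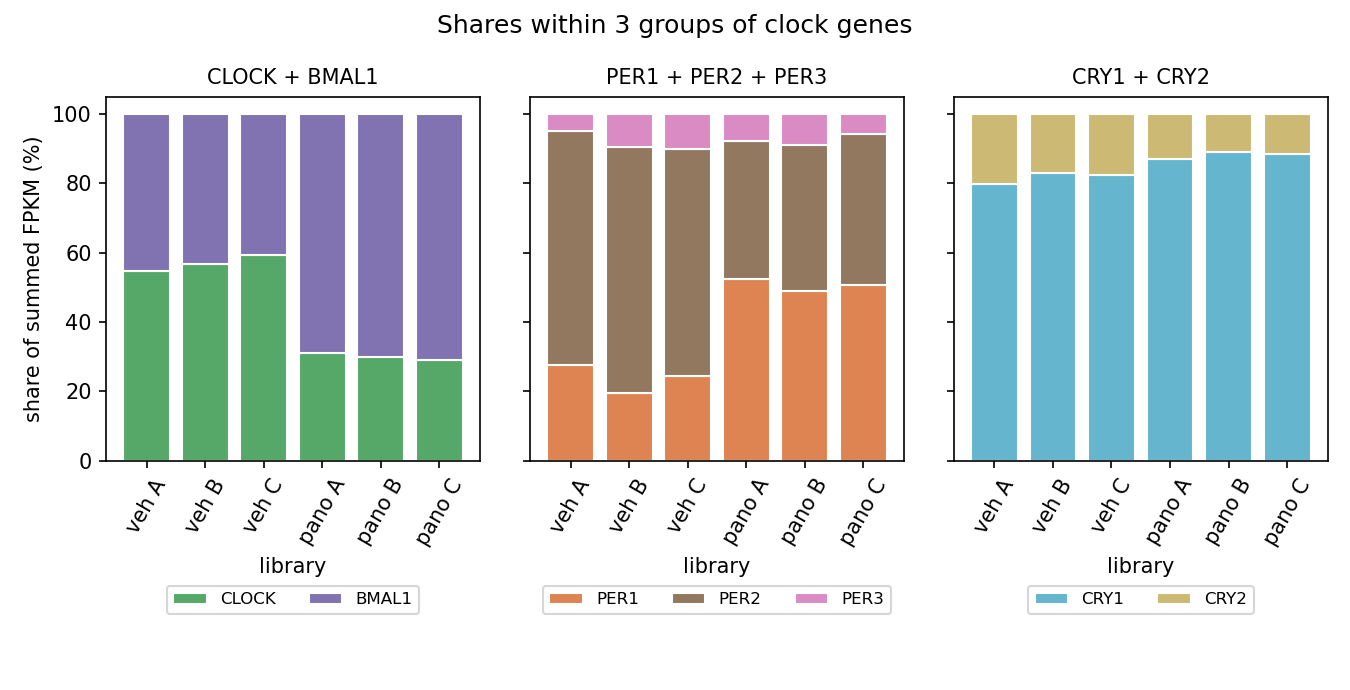
Share of the summed FPKM (vertical axis, percent) that each gene takes in CLOCK with BMAL1, in the 3 period genes and in the 2 cryptochromes, 1 bar per library (veh vehicle, pano panobinostat). BMAL1 goes from 43.1% to 70.0%, PER1 from 23.9% to 50.7% and CRY1 from 81.7% to 88.1% of its group in the mean of 3.

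Of the cryptochromes, the strongest repressors of CLOCK and BMAL1, CRY1 passed and CRY2 did not. CRY1 (ENSG00000008405, chromosome 12, 106991364 to 107093829, minus strand) stood at 71.2, 74.0 and 76.2 CPM with vehicle and at 117.8, 122.6 and 118.5 CPM with panobinostat. The libraries of an arm lay within a few CPM of each other and the arms lay far apart. CRY1 rose by 0.70 ± 0.07 on the log2 scale (adjusted p = 5.50e-07), the smallest adjusted p of the group. CRY2 (ENSG00000121671, chromosome 11, 45847118 to 45883248, plus strand), the second cryptochrome, stood at 22.3, 18.6 and 20.04 CPM with vehicle and at 21.6, 18.8 and 18.9 CPM with panobinostat. Its arms overlapped and its change of -0.04 ± 0.11 did not pass (adjusted p = 0.764), with a sign that flipped when libraries were scaled by size alone (0.07) or by the upper quartile (0.10). The log2 ratio of CRY1 to CRY2 moved from 2.16 ± 0.17 to 2.89 ± 0.14 and did not overlap between arms (difference 0.73, exact permutation p = 0.1, adjusted 0.167). Summed over both genes, the cryptochrome level was 17.1, 16.8 and 17.5 FPKM with vehicle and 27.9, 28.4 and 27.2 FPKM with panobinostat.

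The REV-ERB receptors did not pass. NR1D2 (ENSG00000174738, chromosome 3, 23945260 to 23980618, plus strand) stood at 131.1, 132.1 and 131.1 CPM with vehicle and at 135.5, 127.2 and 127.9 CPM with panobinostat, the highest counts of the group, with panobinostat library A above and B and C under all vehicle libraries. Its change of -0.01 ± 0.07 did not pass (adjusted p = 0.864), and it read 0.10 with library size alone and 0.12 with upper quartile scaling. NR1D1 (ENSG00000126368, chromosome 17, 40092787 to 40100725, minus strand), the form with the stronger rhythm in most tissues, rested on 30 to 43 counts per library. It stood at 2.38, 1.76 and 2.31 CPM with vehicle and at 3.07, 2.19 and 2.30 CPM with panobinostat, with overlapping arms and a change of 0.22 ± 0.23 (adjusted p = 0.414). NR1D2 took 96.3% to 97.3% of the summed NR1D FPKM with vehicle and 95.5% to 96.5% with panobinostat, so almost all NR1D transcript in these libraries was NR1D2. Their log2 ratio differed by 0.24 between arms (exact permutation p = 0.5, adjusted 0.5). THRA, a thyroid hormone receptor gene on the opposite strand, shares 263 exonic bases with NR1D1. Counting by strand keeps the 2 apart, and THRA had 774 to 1006 counts per library with a change of 0.17 ± 0.09 that did not pass (adjusted p = 0.103), though it passed with library size alone (0.28, adjusted p = 0.014), with upper quartile scaling (0.31, adjusted p = 0.00678) and without vehicle library A (0.24, adjusted p = 0.019).

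DBP (ENSG00000105516, chromosome 19, 48630030 to 48637438, minus strand), the PAR bZIP activator that is a direct target of CLOCK and BMAL1, stood at 16.2, 16.4 and 14.3 CPM with vehicle and at 16.1, 18.9 and 17.1 CPM with panobinostat. Panobinostat library A lay among the vehicle libraries and B and C lay above them. Its change of 0.16 ± 0.11 did not pass (adjusted p = 0.222). With library size alone it was 0.27 and passed (adjusted p = 0.0449), and with upper quartile scaling it was 0.29 and passed (adjusted p = 0.0289), under which the median of all genes was itself shifted up by 0.11 and 0.14. DBP shares 661 exonic bases with SPHK2 on the opposite strand, which was counted apart by strand. CLOCK likewise shares 76 exonic bases with TMEM165.

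By deposited FPKM, the members fell into 3 tiers. FPKM divide by all annotated exonic bases of a gene, such as 6544 for DBP (gene span 7409) and 2772 for NR1D1. Such lengths can exceed that of the transcript made, so the tiers order FPKM and not transcript numbers. With vehicle NR1D2 (21.7 ± 0.156 FPKM) and CRY1 (14.01 ± 0.383) stood highest, at the 89.7th and 83.8th percentile of all rows. CRY2 (3.15 ± 0.319), CLOCK (3.07 ± 0.117), BMAL1 (2.33 ± 0.143), DBP (2.29 ± 0.181) and PER2 (2.19 ± 0.281) formed the middle. PER1 (0.776 ± 0.218), NR1D1 (0.745 ± 0.123) and PER3 (0.255 ± 0.064) stood lowest. The ranges of CRY2 and CLOCK overlapped, as did those of BMAL1 and DBP, of DBP and PER2, and of PER1 and NR1D1, so their order within those pairs is not resolved. With panobinostat CRY1 (24.5 ± 0.651 FPKM) and NR1D2 (23.2 ± 0.954) overlapped at the top, BMAL1 (4.88 ± 0.324) stood next, and PER1 (1.96 ± 0.371) had joined CLOCK (2.10 ± 0.242) and PER2 (1.61 ± 0.185) with ranges that overlapped from each to the next. NR1D1 and PER3 stood lowest with panobinostat.

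**Figure D3:**
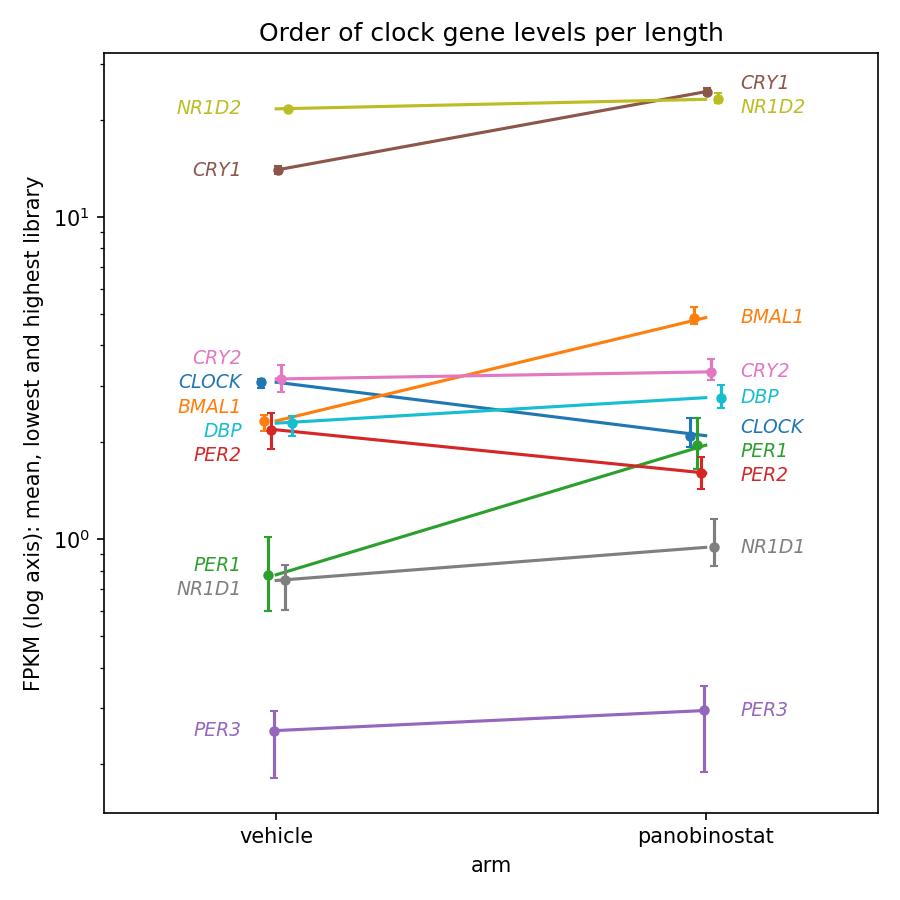
Mean FPKM (vertical axis, log axis) of each clock gene in the vehicle and panobinostat arms, with bars from the lowest to the highest of 3 libraries. CRY1 rises from 14.01 to 24.5 FPKM to meet NR1D2, BMAL1 crosses CLOCK, and PER1 moves from 0.776 to 1.96 FPKM to reach PER2. These levels carry no TMM correction between arms, and the order of genes depends on the exonic lengths used.

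Genes that work with the 10 members were taken from 6 lists of 55 entries, of which 53 were tested: 12 rose and 23 fell, with a median log2 change of -0.17 against 0.01 over all genes. Over all tested genes 33.7% rose, 31.5% fell and 65.2% changed either way, and the share of companions called was close to that, so their number is not read as a result about them. The abundance filter kept 6 of the 53 through the panobinostat arm alone (among them BHLHE40, FBXL21P, USP2 and SIK1), so their direction follows in part from how they were kept. Of the 47 that either arm alone would have kept, 7 rose and 23 fell. No companion was kept through vehicle alone, so this step took away rises and no falls. The like share over all genes was not computed, so this split is not read as a result either.

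In the second loop, the ROR receptors activate BMAL1 from the sites that REV-ERB represses. Its list here also holds E-box repressors and the D-box factors NFIL3, HLF and TEF. Of its 8 tested genes, 6 rose (NFIL3 and HLF among them) and 1 fell (TEF), beside 33.7% and 31.5% of all tested genes. The counts were 4 and 1 without the genes kept through panobinostat alone, 5 and 1 with DESeq2, and 3 and 1 of 5 tested with limma after a filter, and no test of the list was made. NFIL3, the repressor that competes with DBP at D-boxes, rose from 20.4 ± 1.64 to 28.3 ± 0.973 CPM (by 0.47 ± 0.09). HLF and TEF, the PAR bZIP relatives of DBP, parted: HLF stood at 10.4, 11.6 and 9.53 CPM and then at 25.3, 19.5 and 19.2 CPM, and rose by 1.02 ± 0.13 (adjusted p = 7.38e-06). TEF stood at 18.6, 16.5 and 20.9 CPM and then at 7.78, 7.99 and 8.36 CPM, and fell by 1.21 ± 0.12 (adjusted p = 5.94e-07). So of the 3 D-box activators, 1 rose, 1 fell and DBP did not pass. BHLHE41 had 0 counts with vehicle and 22 over the panobinostat arm and was not tested.

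Of 14 genes of kinases and ubiquitin ligases that set the life span of PER and CRY proteins, 6 fell and 2 rose, beside 31.5% and 33.7% of all tested genes, and both rises were of genes kept through panobinostat alone. CUL1, the scaffold of SCF ligases, fell from 125.4 ± 2.53 to 57.3 ± 3.78 CPM (by 1.13 ± 0.07, adjusted p = 7.28e-09). BTRC, the F-box protein that recognises phosphorylated PER, fell by 0.62 ± 0.09. The rises were in USP2, a deubiquitinase (0.353 ± 0.007 to 1.79 ± 0.257 CPM), and FBXL21P, a pseudogene whose count is uncertain (0.344 ± 0.126 to 4.25 ± 0.545 CPM). The falls numbered 6 under every scaling. The rises numbered 5 when libraries were scaled by size or upper quartile, or filtered at 1 CPM, and 4 without vehicle library A. The median of the list turned from -0.09 to 0.03 by size and to 0.05 by upper quartile.

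Of 16 genes of co-regulators that CLOCK and BMAL1, the PER and CRY complex or REV-ERB recruit, 9 fell and 1 rose, with a median of -0.28, beside 31.5% and 33.7% of all tested genes. The share called either way was near the 65.2% of all genes. Over the alternatives run the falls numbered from 7 (scaling by size) to 12 (without panobinostat library A). CREBBP, an acetyltransferase that coactivates CLOCK and BMAL1, stood at 52.2, 43.4 and 49.9 CPM and then at 28.6, 20.9 and 20.7 CPM, and fell by 1.06 ± 0.12 (adjusted p = 2.20e-06). WDR5, a subunit of histone methyltransferase complexes found with PER, fell by 0.77 ± 0.09. TIMELESS, named for the fly clock gene and in mammals chiefly a replication fork protein, fell from 220.6 ± 9.80 to 125.7 ± 9.49 CPM. NCOR1, which REV-ERB uses to repress BMAL1, stood at 181.7, 190.7 and 184.5 CPM and then at 145.7, 108.8 and 107.9 CPM, with panobinostat library A apart from the others of its arm, and fell by 0.62 ± 0.10 (adjusted p = 6.94e-05). HDAC3, the deacetylase that NCOR1 activates, stood at 75.04 ± 2.15 and 72.4 ± 1.56 CPM and did not pass (-0.05 ± 0.07, adjusted p = 0.544), with a sign that flipped to 0.06 with library size alone and 0.09 with upper quartile scaling.

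The CREB pathway, through which outside signals induce PER1, held 4 falls and 0 rises among 6 tested genes, and the counts were the same under every alternative run. The share called was close to the 65.2% of all tested genes, of which 31.5% fell. CREB1, the factor that binds cyclic AMP elements, fell from 112.7 ± 2.53 to 76.6 ± 5.19 CPM, and its relative ATF1 fell by 0.56 ± 0.10. The CREB coactivator CRTC3 stood at 25.2, 22.6 and 25.1 CPM and then at 11.4, 9.70 and 10.5 CPM, and fell by 1.21 ± 0.11 (adjusted p = 1.66e-07). CRTC1 fell by 0.94 ± 0.19. These falls stood beside the rise of PER1, and no link between them was tested.

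Output genes went both ways. Of 8 genes listed as E-box or D-box outputs, 2 rose and 3 fell, beside 33.7% and 31.5% of all tested genes. The counts were 1 and 3 without the gene kept through panobinostat alone, and 3 and 3 when scaled by size or upper quartile. PPARA, a nuclear receptor of fatty acid use, rose from 4.45 ± 0.529 to 14.1 ± 1.74 CPM (by 1.66 ± 0.15, adjusted p = 1.63e-07). KLF10 and KLF11, zinc finger factors, fell by 0.60 ± 0.09 and 1.27 ± 0.27.

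**Figure D4:**
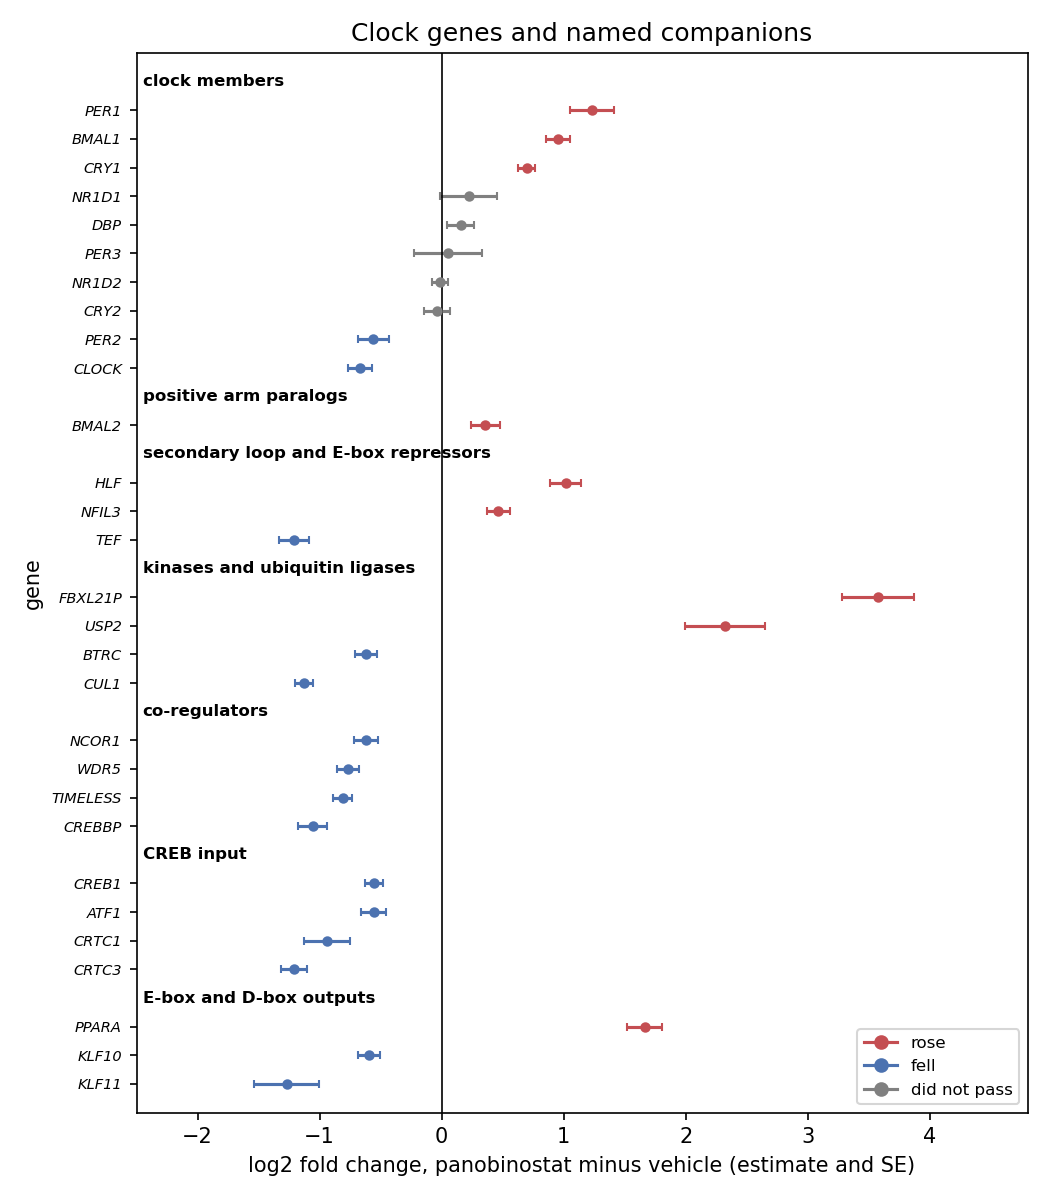
Log2 fold change, panobinostat minus vehicle (horizontal axis, estimate with SE), of the clock genes and of the called companions taken from each list by size of change (red rose, blue fell, grey did not pass). The members run from PER1 at 1.23 to CLOCK at -0.67, and HLF and TEF lie on opposite sides of 0.

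PER1, as the member with the largest change, was set against the profiles of all 14422 tested genes whose mean reached 1 CPM. The smallest distances over the 6 libraries (Euclidean, centred log2 CPM) were those of STAC2 (0.245), ENSG00000268362, which has no symbol here (0.254), and MROH1 (0.263). MROH1 rose from 2.01 ± 0.568 to 5.13 ± 0.704 CPM, and a rise like that of PER1 follows from how it was picked. Like PER1, BMAL1, PER2, CRY2 and NR1D1 were highest in library A of each arm, and the part of that library in their values was not tested beyond leaving it out: CLOCK, BMAL1, PER1, PER2 and CRY1 passed without library A of either arm.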

How the data were processed

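Total RNA of 3 vehicle and 3 panobinostat libraries was sequenced, and the sample titles gave each library its arm and letter. The authors made the deposited counts per gene with featureCounts 1.5.0-p3, by strand (option 2) and largest overlap on Ensembl release 84 genes, per the file headers. The submitters' processing notes name featureCounts 1.5.1, Novoalign 2.8 and hg38. The deposited FPKM values were proportional to the counts: all 64991 with 100 counts or more lay within 1% of counts scaled by length and total. Symbols and GRCh38 positions were matched for 22459 of 22718 identifiers (gene names table and GENCODE 29).

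After filterByExpr (at least 10 counts, at least 15 in total) and TMM scaling, edgeR 4.0.16 in R 4.3.3 ran its quasi-likelihood test over all genes, at an adjusted p of 0.05. SE is the change divided by the square root of F. Ratios of FPKM were compared by exact permutation. Alternatives were DESeq2 1.42.0, other scalings and filters, the letter as a block, limma 3.58.1 on log2(FPKM + 1) and log2(FPKM + 0.1), and each library left out. The steps were tested on simulated data. The members and lists were chosen with earlier results of these data known. Named companions were up to 4 called genes per list, taken by size of change among those averaging at least 1 CPM. HDAC3, NCOR1 and THRA were always named. BHLHE41, BHLHE40, SIK1 and SPHK2 were added after their values were seen. Some genes of the lists that enter the counts, and an element searched in the promoters, are not reported here.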

Additional observations from a re-analysis of the deposited data

How the results depend on the processing

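Over 166 alternatives for single members, 146 kept direction and side of the threshold, and CLOCK, BMAL1, PER1 and CRY1 did so in all run. With limma on log2(FPKM + 1) over all rows the number of members that fell was 1 in place of 2, since PER2 did not pass. Members that rose numbered 3 or, with library size alone and upper quartile scaling, 4. Among all genes the rises were 51.7% of the calls, but 61.0% with library size alone, 63.2% with upper quartile scaling and 64.7% with limma over all rows. Signs of uncalled genes turned as follows. CRY2 read 0.074 (library size), 0.10 (upper quartile), 0.056 and 0.056 (limma, pseudocount 1, with and without filter) and 0.072 (pseudocount 0.1), and -0.106 to 0.022 with 1 library left out. NR1D2 read 0.099, 0.124, 0.093, 0.093 and 0.097 in the same order, 0.017 with a filter at 1 CPM, and -0.042 to 0.003 with 1 library left out. HDAC3 read 0.062, 0.088, 0.058, 0.058 and 0.061 in that order. PER3 read -0.139 to 0.305 with 1 library left out. THRA passed in 5 alternatives. Correlations of deviations between arms were 0.10, -0.01 and 0.13 for A, B and C, and -0.14 to 0.04 between unlike letters. These values are small, and whether the letters pair the libraries was not tested. With the replicate block 3 members rose and 2 fell, and 5432 genes rose and 5109 fell. PER3 and NR1D1, at 21 to 45 counts per library, are limited by depth.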
